A study of Mus musculus with 6 samples.

Results

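Semaphorins are secreted or membrane-bound guidance proteins, and neuropilins and plexins are the cell-surface proteins through which most of them act. The genes described here are 10 of the 52997 gene symbols of the count table, taken by symbol: the class 3 semaphorins Sema3a, Sema3b, Sema3c, Sema3d and Sema3e, the class 5 semaphorin Sema5a, the neuropilins Nrp1 and Nrp2, the plexin Plxna2, and Plxdc2. All 10 were in the table and all 10 passed the filter on low counts. The RNA came from mesenchymal stromal cells, the fibroblast-like cells of connective tissue, of C57BL/6 mice aged 8 weeks at rest. The 2 groups are cells of hindlimb skeletal muscle and cells of lymph nodes pooled from 4 sites (inguinal, axillary, brachial and cervical), with 3 libraries each and 1000 sorted cells per library. No genotype or agent is given for either group, and the surface markers used for the sort were not given in the sources used here. Per the series' design text these are biological replicates. Because 2 muscle titles share a number, p-values may in part measure technical spread.

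Class 3 semaphorins are secreted, and most of them bind a neuropilin, which has no signalling domain of its own, held in a complex with a plexin that relays the signal. Sema3e is the known exception in the class, since it binds the plexin Plxnd1 without a neuropilin. In adult tissues these proteins steer axons, vessels and migrating cells, and Nrp1 and Nrp2 also act as co-receptors for vascular endothelial growth factors. Plxdc2 is a membrane protein with a plexin-like domain and is not counted among the semaphorin receptors.

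Each library is named by its number in the count table, muscle 2, 3 and 4 and lymph node 1, 2 and 3. Total gene counts were between 415460 (muscle library 4) and 1844874 in muscle, and between 1851940 and 2397134 in lymph node. Muscle library 4 stood apart: its log2 CPM (counts scaled to library size, with the TMM factors of edgeR) had a Pearson r of 0.705 and 0.702 with the other muscle libraries across tested genes, where those 2 had 0.952 with each other. It also held 1156 CPM of 5 summed B cell markers, against between 14.3 and 155 CPM in the other 5 libraries, 207 CPM of 6 T cell markers, against at most 8.44 CPM, and 704 CPM of 7 myeloid markers, against at most 28.2 CPM. Of that last sum, 589 CPM was Ptprc, which B and T cells also express. Lyz2 had 83.3 CPM and Tyrobp 26.9 CPM there, Adgre1 had 5.38 CPM, and Itgam, Cd68 and Csf1r had 0 counts. The part of such cells in the results was not tested, and the results on the 10 genes are also given without this library. The 9 stromal markers, among them the receptor gene Pdgfra, were detected in all 6 libraries and summed to between 55945 and 71873 CPM in muscle and between 70531 and 87036 CPM in lymph node. That sum was mostly Col3a1, Dcn and Col1a1. Pdgfra had 651 CPM in muscle library 4, against between 1193 and 1494 CPM in the other 5 libraries. Ly6a had 495 CPM there, against between 941 and 1279 CPM. Pdgfrb, Pdpn and Dcn were also lowest in that library, while Lum, Col1a1, Col3a1 and Thy1 lay within the range of the others. Of the 8 endothelial markers, Tek had between 121 and 366 CPM in every library, Pecam1 had 59.1 CPM in muscle library 4 and at most 3.84 CPM elsewhere, and each of the other 6 had at most 3.44 CPM, with Cldn5 at 0 counts throughout. The 4 lymphatic endothelial markers summed to 56.4 CPM in muscle library 4, mostly Prox1 and Lyve1, and to at most 9.49 CPM in the other 5 libraries.

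Of the 10 genes, 1 differed between the tissues with all libraries in the test: Sema3e was lower in muscle (edgeR quasi-likelihood test, Benjamini-Hochberg adjusted p under 0.05). Across all genes, 468 of 10823 tested genes were called, which is 4.32%, with 2.86% lower and 1.46% higher in muscle. DESeq2 and limma-voom also called Sema3e alone among the 10, against 6.35% and 5.82% of all genes they tested. At an unadjusted p under 0.05 edgeR gave 3 of the 10, with Sema5a and Plxdc2 higher in muscle, against 15.1% of all tested genes. Without muscle library 4, 5 of the 10 were called, against 12.4% of 11246 tested genes. Sema5a, Nrp2 and Plxdc2 were then higher in muscle, as were 4.79% of tested genes, and Sema3b and Sema3e were lower, as were 7.58%. That fit has 2 muscle libraries, and the labels do not tell whether these are the 2 whose titles share a number. If both came from 1 mouse, all p-values given without muscle library 4 would hold no spread between mice in muscle. The median log2 fold change of the 10 genes, muscle minus lymph node, was 0.12 over the 6 libraries and -0.02 when muscle library 4 was dropped, where that of all tested genes was 0.02 and 0.01. Levels in the 3 muscle libraries and the 3 lymph node libraries did not overlap for 5 of the 10 genes, 2 higher and 3 lower in muscle, against 23.6% of all tested genes (9.93% higher and 13.7% lower). Without muscle library 4 they did not overlap for 7, 4 higher and 3 lower in muscle, against 39.3% (19.2% higher and 20.1% lower). The 10 genes were chosen with earlier results of these data known. These counts therefore cannot show that the set differs from other genes.

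**Figure D1:**
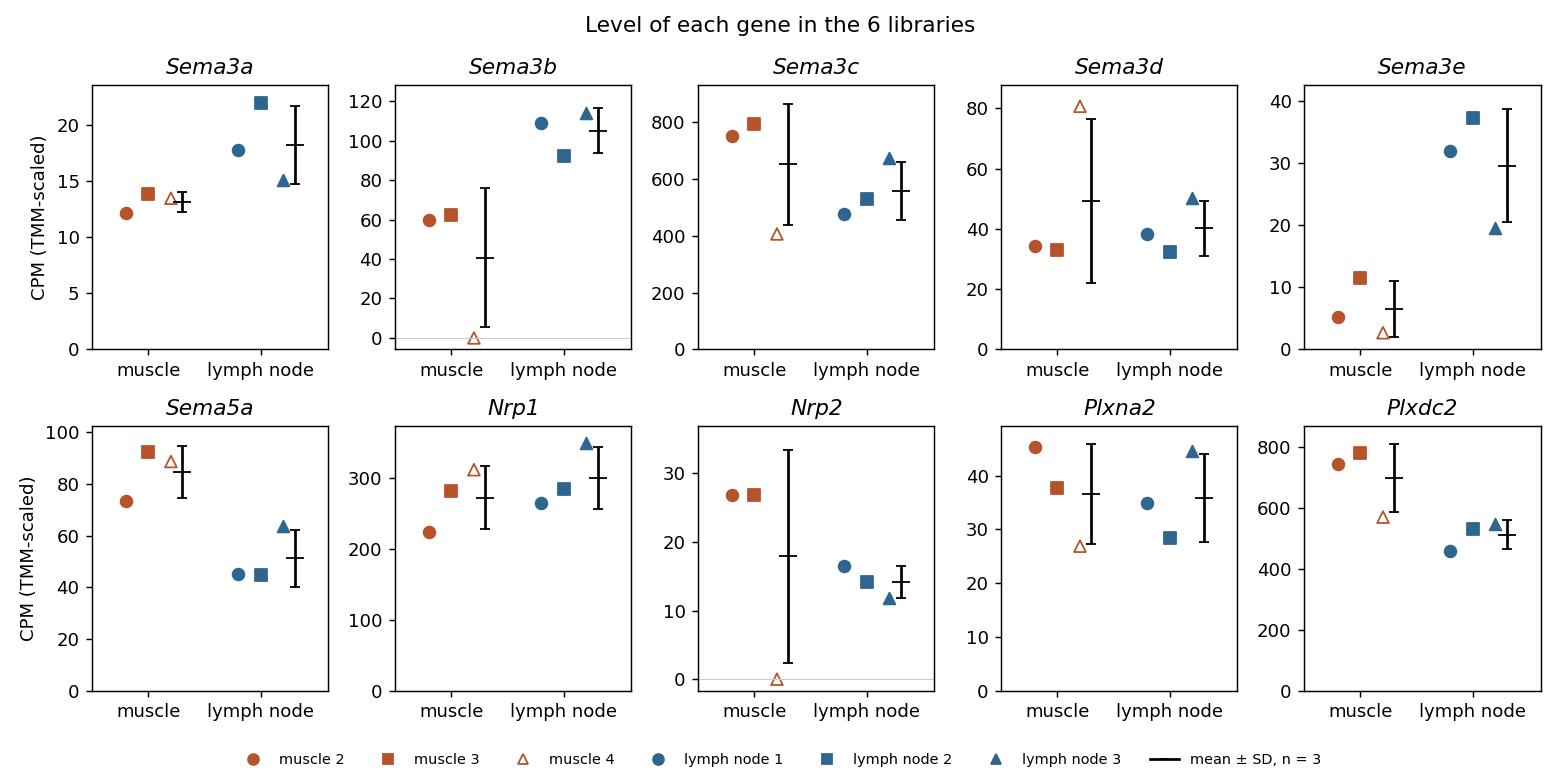
TMM-scaled CPM (vertical axis, with 0 shown) of each of the 10 genes in the 3 muscle and 3 lymph node libraries, with the mean and SD of each tissue beside the points (n = 3). Sema3e lay at or below 11.5 CPM in muscle and at or above 19.6 CPM in lymph node, and the open triangle of muscle library 4 is at 0 for Sema3b and Nrp2.

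Sema3e encodes the ligand of plexin D1, known for repelling growing vessels in the mouse embryo. It measured 5.27, 11.5 and 2.69 CPM in muscle libraries 2, 3 and 4 (26 counts in all), against 32.0, 37.4 and 19.6 CPM in lymph node libraries 1, 2 and 3 (186 counts in all). All muscle libraries were below all lymph node libraries. Muscle libraries averaged 6.50 ± 4.54 CPM and lymph node libraries 29.6 ± 9.13 CPM (SD, n = 3 each), a log2 fold change of -2.02 ± 0.48 (SE, edgeR adjusted p = 0.0471), which is 4.06-fold lower in muscle. When muscle library 4, which had 1 Sema3e count, was left out, it was -1.89 ± 0.40 (adjusted p = 0.00528). The call rested close to the threshold: without any 1 of the other 5 libraries the adjusted p was between 0.0537 and 0.269, with log2 fold changes between -2.66 (without muscle library 3) and -1.76 (without muscle library 2).

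Plxnd1, the receptor that Sema3e binds and a gene outside the 10, was lower in muscle as well. It measured 28.5, 23.1 and 13.4 CPM in muscle libraries 2, 3 and 4, against 45.1, 62.7 and 60.6 CPM in lymph node libraries 1, 2 and 3. Here too the tissues did not overlap, and the log2 fold change was -1.26 ± 0.29 (adjusted p = 0.0408), or -1.12 ± 0.23 (adjusted p = 0.00407) without muscle library 4. As for Sema3e, dropping any 1 of the other 5 libraries ended the call (adjusted p up to 0.249), as did total-count scaling (-1.17, adjusted p = 0.0717). Plxnd1 is abundant in endothelium, and fewer cells of a type cannot be told apart from less RNA per cell in such bulk libraries. The 8 endothelial markers summed to between 185 and 376 CPM in muscle and between 266 and 348 CPM in lymph node, mostly Tek, and without Tek to 9.49, 9.99 and 64.5 CPM in muscle libraries 2, 3 and 4, against between 5.14 and 8.19 CPM in lymph node libraries. Their part in the difference of Plxnd1 was not tested.

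The upstream sequence of this ligand and receptor pair is shown because both genes were lower in the same tissue, and that of Sema5a because it was the member most above lymph node in muscle among those whose tissues did not overlap. The stretches come from RefSeq's promoter table (GRCm38.p6), cover chr5:14025026-14025275 on the plus strand (250 bases), chr6:115995006-115995255 on the minus strand (250 bases) and chr15:32244563-32244809 on the plus strand (247 bases), and end at the base before the annotated start. Capitals mark GC boxes (GGGCGG, read on both strands).
Sema3e: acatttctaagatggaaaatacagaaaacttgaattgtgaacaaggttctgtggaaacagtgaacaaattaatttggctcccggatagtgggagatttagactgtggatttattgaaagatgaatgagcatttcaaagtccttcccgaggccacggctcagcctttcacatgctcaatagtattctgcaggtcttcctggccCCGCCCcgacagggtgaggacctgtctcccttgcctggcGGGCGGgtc
Plxnd1: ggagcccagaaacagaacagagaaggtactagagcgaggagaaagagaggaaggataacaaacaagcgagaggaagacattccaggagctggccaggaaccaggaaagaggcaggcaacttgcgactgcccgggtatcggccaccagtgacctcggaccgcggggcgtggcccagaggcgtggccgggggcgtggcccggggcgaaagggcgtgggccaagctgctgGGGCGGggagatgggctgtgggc
Sema5a: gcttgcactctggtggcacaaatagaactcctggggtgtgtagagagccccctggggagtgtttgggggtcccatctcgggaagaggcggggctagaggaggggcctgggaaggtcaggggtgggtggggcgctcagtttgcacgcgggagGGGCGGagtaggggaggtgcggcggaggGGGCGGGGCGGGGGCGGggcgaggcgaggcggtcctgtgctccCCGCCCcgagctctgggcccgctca
These windows of 250 bases held 2 GC box matches for Sema3e, 1 for Plxnd1 and 5 for Sema5a, of which some overlapped. Of the 8 member genes with a promoter entry, 6 had at least 1 such match, against 32.7% of 32851 promoter windows of this length. The letters of AP-1 (TGANTCA), the TATA box (TATAAA) and the palindromic E-box (CACGTG) were in none of the 8, against 6.75%, 12.4% and 6.02% of all windows, and those of the CCAAT box (CCAAT) were in 1, Sema3d, against 33.8%. Sema3e had 48.0% G and C with 7 CpG pairs, and Sema5a 72.0% with 17, where the median of all windows was 52.4% with 6 CpG pairs.

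Sema3e lies on chromosome 5 (14025276 to 14256689, plus strand, GRCm38, GENCODE M21) together with 3 other members. Sema3d (12383385 to 12588948) and Sema3a (13125414 to 13602565) precede it, and Sema3a ends 422710 bases before it begins. Sema3c (17574281 to 17730268) follows after a gap of 3317591 bases. Of these 4 genes Sema3e was called lower in muscle, and Sema3a, Sema3c and Sema3d were not called with or without muscle library 4. Whether their fold changes differ from that of Sema3e was not tested.

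Sema3a encodes the ligand of neuropilin 1 that collapses axonal growth cones. It was low in both tissues, at 12.1, 13.8 and 13.4 CPM in muscle libraries 2, 3 and 4, against 17.7, 21.9 and 15.0 CPM in lymph node libraries 1, 2 and 3. The tissues did not overlap, but the difference did not pass the test (log2 fold change -0.48 ± 0.35, adjusted p = 0.6), nor did it without muscle library 4 (-0.51 ± 0.32, adjusted p = 0.387). These values rest on 46 muscle counts, 5 of them in library 4, and the 95% interval of the difference ran from -1.16 to 0.20.

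Sema3c encodes a ligand of both neuropilins and had the highest level per exon length of the semaphorins in both tissues. It had 752, 793 and 406 CPM in muscle libraries 2, 3 and 4, against 475, 528 and 672 CPM in lymph node libraries 1, 2 and 3. Muscle libraries 2 and 3 exceeded every lymph node library, and muscle library 4 was below them all. The log2 fold change was 0.23 ± 0.27 (adjusted p = 0.773), and 0.46 ± 0.15 without muscle library 4 (adjusted p = 0.0659). Sema3d, a class 3 ligand with roles in heart and vein development, measured 34.3, 33.0 and 80.6 CPM in muscle libraries 2, 3 and 4, against 38.3, 32.2 and 50.1 CPM in lymph node libraries 1, 2 and 3. It overlapped between tissues, and the direction of its difference turned with muscle library 4, at 0.15 ± 0.36 with it (adjusted p = 0.909) and -0.26 ± 0.24 without it (adjusted p = 0.587).

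Sema3b, first known in humans as a gene lost in lung tumours, is encoded on chromosome 9 (107597674 to 107609229, minus strand). It had 59.6 and 62.2 CPM in muscle libraries 2 and 3 and 0 counts in muscle library 4, against 109, 92.4 and 114 CPM in lymph node libraries 1, 2 and 3. Every muscle library was below every lymph node library. At the level of muscle libraries 2 and 3, 24.3 counts would have fallen in library 4, where a count of 0 allows up to 8.06 CPM (3 counts, counting error only). With that library the log2 fold change was -1.17 ± 0.56 (adjusted p = 0.375), and without it -0.79 ± 0.17 (adjusted p = 0.00535), which is 1.73-fold lower in muscle.

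Sema5a encodes a membrane-spanning semaphorin with thrombospondin repeats that can attract or repel axons. It lies on chromosome 15 (32244810 to 32696341, plus strand). Levels were 73.3, 92.2 and 88.7 CPM in muscle libraries 2, 3 and 4, against 45.1, 44.7 and 63.7 CPM in lymph node libraries 1, 2 and 3, so that all muscle libraries were above all lymph node libraries. Unlike Sema3b, its value in muscle library 4 lay between those of the other muscle libraries. The log2 fold change was 0.72 ± 0.23 (adjusted p = 0.152) with all libraries and 0.67 ± 0.20 (adjusted p = 0.0407) without muscle library 4, which is 1.59-fold higher in muscle.

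Nrp1 encodes the main co-receptor of Sema3a and of vascular endothelial growth factor A, and it was well expressed in both tissues. Its levels were 224, 281 and 312 CPM in muscle libraries 2, 3 and 4, against 266, 285 and 349 CPM in lymph node libraries 1, 2 and 3. The gene lies on chromosome 8 (128358604 to 128503363, plus strand). Its tissue ranges overlapped, and the log2 fold change was -0.15 ± 0.20 (adjusted p = 0.805, 95% interval from -0.54 to 0.24), and -0.26 ± 0.16 without muscle library 4 (adjusted p = 0.372). Nrp2, the co-receptor of Sema3f and of vascular endothelial growth factor C, had 26.9 CPM in each of muscle libraries 2 and 3 and 0 counts in muscle library 4, against 16.6, 14.2 and 11.8 CPM in lymph node libraries 1, 2 and 3. Nrp2 and Plxna2 both lie on chromosome 1 (62703285 to 62818695 and 194618218 to 194816869, plus strand). Library 4 would have held 10.7 Nrp2 counts at the level of the other muscle libraries. With it the difference was 0.57 ± 0.59 (adjusted p = 0.739), and without it 0.92 ± 0.28 (adjusted p = 0.0438), which is 1.89-fold higher in muscle. The 2 muscle libraries behind that last value held 86 counts of Nrp2 together.

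Plxna2 encodes a plexin that pairs with neuropilins for class 3 ligands and binds class 6 semaphorins directly. Its levels of 45.4, 37.7 and 26.9 CPM in muscle libraries 2, 3 and 4 overlapped with the 34.8, 28.4 and 44.6 CPM of lymph node libraries 1, 2 and 3. The log2 fold change was 0.09 ± 0.28 (adjusted p = 0.931, 95% interval from -0.46 to 0.64), and 0.21 ± 0.23 without muscle library 4 (adjusted p = 0.668). Plxdc2 encodes the transmembrane protein plexin domain-containing 2, reported as a receptor for pigment epithelium-derived factor, and lies on chromosome 2 (16356304 to 16755839, plus strand). It had 744, 779 and 569.9 CPM in muscle libraries 2, 3 and 4, against 458, 529.7 and 549 CPM in lymph node libraries 1, 2 and 3. All muscle libraries were higher, the closest pair being muscle library 4 and lymph node library 3. The log2 fold change was 0.45 ± 0.19 (adjusted p = 0.295), and 0.56 ± 0.13 without muscle library 4 (adjusted p = 0.0105), which is 1.48-fold higher in muscle. With scaling by total counts, Plxdc2 in muscle library 4 was no longer above all lymph node libraries.

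**Figure D2:**
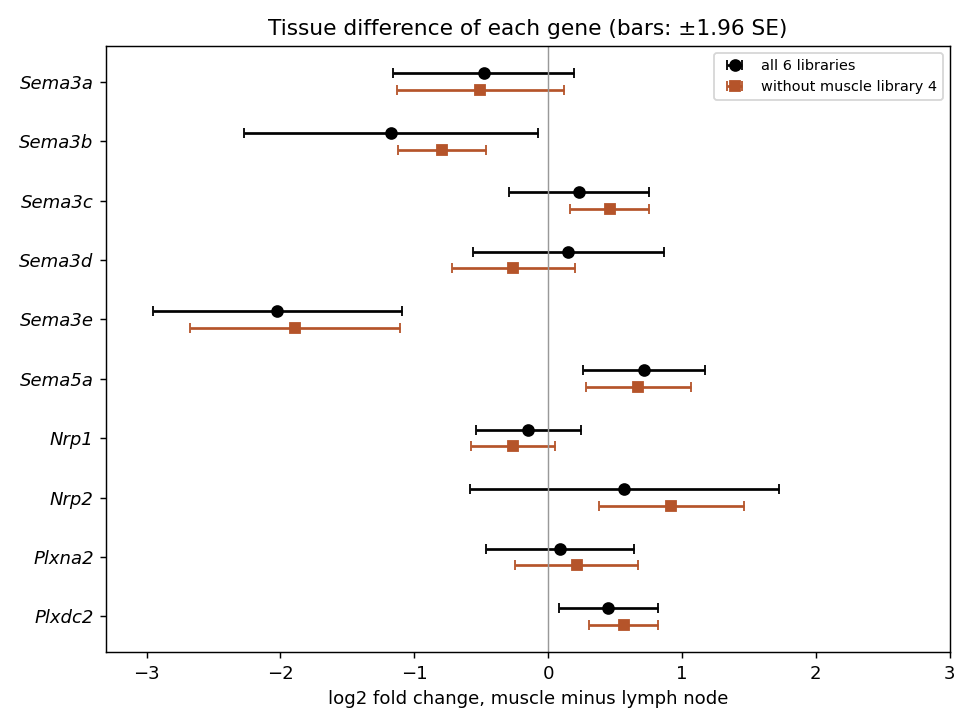
Log2 fold change, muscle minus lymph node (horizontal axis), of each of the 10 genes with all 6 libraries (circles) and without muscle library 4 (squares), with bars for the 95% interval from the SE. Sema3e lies near -2 in both fits, and the value of Sema3d changes sign between them.

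Levels of different genes were set side by side as CPM per kb of exon length. In lymph node cells Sema3c came first at 78.2 ± 14.2 CPM per kb, with Plxdc2 at 73.7 ± 6.88, and their ranges over libraries overlapped. Nrp1 followed at 30.6 ± 4.48 CPM per kb, although with the length of the longest transcript in place of all exons it was at 82.3 and above Plxdc2. Next was Sema3b at 22.0 ± 2.36 CPM per kb, below Nrp1 and above Sema3d (4.68 ± 1.06) in every library. From Sema3d through Sema3e (3.19 ± 0.98), Sema5a (2.74 ± 0.58) and Plxna2 (2.09 ± 0.48), each gene overlapped with the next. Sema3a (1.31 ± 0.25) and Nrp2 (1.20 ± 0.20) were the lowest and overlapped with each other (SD, n = 3 each).

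In muscle cells the order began with Plxdc2 at 100.4 ± 16.1 CPM per kb and Sema3c at 91.1 ± 29.8, whose ranges overlapped, and Nrp1 was again the third at 27.8 ± 4.58. Below it Sema3b (12.5, 13.0 and 0 in libraries 2, 3 and 4), Sema3d (5.74 ± 3.16) and Sema5a (4.54 ± 0.54) overlapped each with the next, as did Plxna2 (2.13 ± 0.54), Nrp2 (1.51 ± 1.31), Sema3a (0.95 ± 0.06) and Sema3e. Sema3e was the tenth of the 10 genes there, at 0.70 ± 0.49 CPM per kb, and the sixth in lymph node. With the length of the longest transcript, Sema3c came before Plxdc2 and Sema5a before Sema3d in muscle. In lymph node Sema3e was then below Sema5a. Sema3c alone made up 74.4%, 73.2% and 57.2% of the per-length level of all 20 semaphorin genes in muscle libraries 2, 3 and 4, against 53.9%, 59.5% and 62.1% in lymph node libraries 1, 2 and 3. The share in the 2 muscle libraries other than 4 was above that in any lymph node library. Nrp1 held 91.0% and 92.7% of the level of the 2 neuropilins in muscle libraries 2 and 3, and all of it in library 4, where Nrp2 had 0 counts, and between 95.1% and 97.3% in lymph node. Plxna2 held between 4.55% and 5.79% of the level of the 9 plexins in muscle and between 3.27% and 4.53% in lymph node, and the plexins with the highest levels were Plxnb2 and Plxna1.

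**Figure D3:**
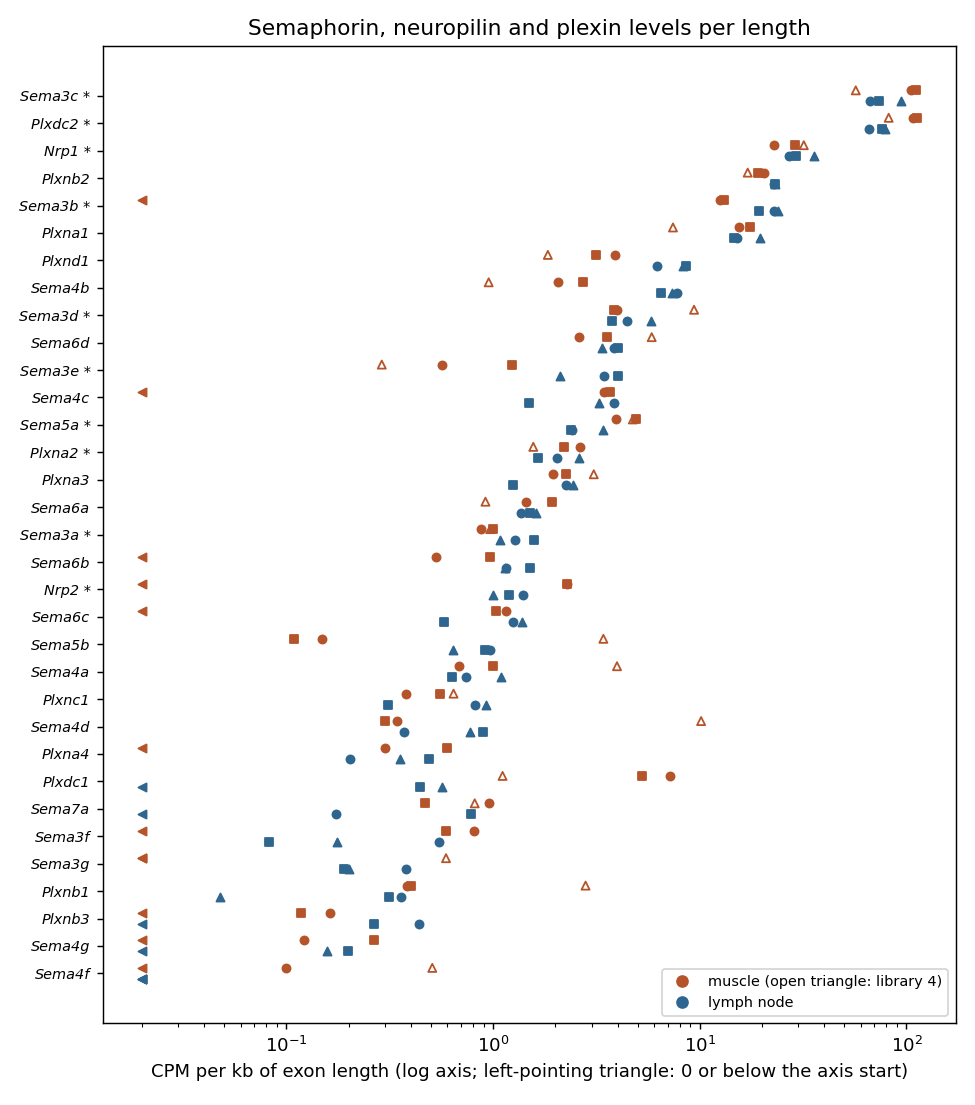
Level of each semaphorin, neuropilin and plexin gene, and of Plxdc1 and Plxdc2, in CPM per kb of exon length (log axis) in each library, with muscle points above lymph node points on each line and an asterisk at the 10 genes described here. Sema3c, Plxdc2 and Nrp1 have the highest levels in both tissues, and left-pointing triangles mark values at 0 or below the start of the axis.

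The other semaphorin genes numbered 14, of which 8 were tested. Over all tested genes, edgeR called 2.86% lower in muscle with all libraries, and 7.58% without muscle library 4. Sema4b, a class 4 membrane semaphorin, was lower in muscle and the other 7 were not called, by edgeR, by DESeq2 or by limma-voom. It measured 11.6, 15.4 and 5.38 CPM in muscle libraries 2, 3 and 4, against 44.0, 36.5 and 41.4 CPM in lymph node libraries 1, 2 and 3, with no overlap (-1.76 ± 0.33, adjusted p = 0.0176). Dropping muscle library 2 or any 1 of the lymph node libraries ended the call (adjusted p up to 0.113), while dropping muscle library 4 gave -1.62 ± 0.26 (adjusted p = 7.03e-04). Sema5b was called lower in muscle too when muscle library 4 was left out (-2.59 ± 0.75, adjusted p = 0.0355), on 3 counts in muscle libraries 2 and 3 together. In that fit it passed the filter only through lymph node libraries, so the direction of its call was set in advance.

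The other plexins and Plxdc1 numbered 9, of which 4 were tested. Plxnd1 was lower in muscle, as were 2.86% of all tested genes, and 3 were not called by any of the 3 tools. Plxnb2, a receptor of class 4 semaphorins, averaged 146 ± 13.2 CPM in muscle libraries and 177 ± 1.23 CPM in lymph node libraries (SD, n = 3 each, -0.27 ± 0.17, adjusted p = 0.544). Plxna1, a relative of Plxna2, averaged 122 ± 48.2 CPM in muscle libraries and 149 ± 25.4 CPM in lymph node libraries (SD, n = 3 each, -0.24 ± 0.29, adjusted p = 0.784). An antisense model overlaps 10.7% of the Plxna1 exon length, and its reads cannot be told apart in the deposited counts. Plxdc1, the paralogue of Plxdc2, was below the filter with all libraries. It had 34.8, 25.4 and 5.38 CPM in muscle libraries 2, 3 and 4, against 0, 2.15 and 2.73 CPM in lymph node libraries 1, 2 and 3. Without muscle library 4 it passed the filter only through muscle libraries 2 and 3, so that a call could only be in their direction. It was then called higher in muscle (4.07 ± 0.51, adjusted p = 8.03e-05), on 11 counts in lymph node.

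Partners of the neuropilins and plexins on the cell surface, with their ligands, numbered 17, of which 9 were tested. Against 2.86% of all tested genes, 1 of the 9 was lower in muscle, and 8 were not called by any of the 3 tools. The one that fell was Vegfd, a growth factor for lymphatic vessels, at 20.6, 25.4 and 69.9 CPM in muscle libraries 2, 3 and 4, against 113, 132 and 119 CPM in lymph node libraries 1, 2 and 3. Its log2 fold change was -1.88 ± 0.39 (adjusted p = 0.0284), and dropping any 1 of the 5 libraries besides muscle library 4 ended the call (adjusted p up to 0.164). Without muscle library 4 it was -2.43 ± 0.19 (adjusted p = 1.05e-06), and Nrcam and Hgf were called lower and Pgf and Sdc3 higher in muscle. Over all tested genes, 7.58% were then lower and 4.79% higher. Sdc3 passed the filter in that fit only through muscle libraries 2 and 3. Pgf encodes placental growth factor, a ligand of neuropilin 1, and its log2 fold change was then 1.51 ± 0.35 (adjusted p = 0.00995).

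Of 39 listed transducers of plexin signals, 31 were tested. Against 1.46% of all tested genes, 2 of the 31 were higher in muscle, and 29 were not called by any of the 3 tools. Most of the list acts inside the cell, while Mst1r, Erbb2, Trem2 and Tyrobp encode membrane proteins. Dpysl3, which encodes a collapsin response mediator protein that binds the cytoskeleton, had 199.9, 164 and 132 CPM in muscle libraries 2, 3 and 4, against 83.4, 82.5 and 85.1 CPM in lymph node libraries 1, 2 and 3 (1.00 ± 0.21, adjusted p = 0.0257). Mical2, which encodes an enzyme that oxidises actin, had 44.3, 38.4 and 59.1 CPM in muscle libraries 2, 3 and 4, against 19.4, 13.3 and 15.5 CPM in lymph node libraries 1, 2 and 3 (1.52 ± 0.30, adjusted p = 0.0201). Neither gene overlapped between tissues, and dropping any 1 of the 5 libraries besides muscle library 4 ended both calls (adjusted p up to 0.213 for Dpysl3 and 0.158 for Mical2). Leaving out muscle library 4 gave 1.12 ± 0.15 for Dpysl3 (adjusted p = 1.32e-04) and 1.37 ± 0.25 for Mical2 (adjusted p = 0.00187). Dpysl3 was not called when genes with low counts were kept in (adjusted p = 0.165). Without muscle library 4 there were 4 transducers higher, with Dpysl2 and Tiam1 added, and 1 lower, Mst1r (-0.75, adjusted p = 0.0284). Over all tested genes, 4.79% were then higher and 7.58% lower. Of the 4 proprotein convertases, the proteases that cleave class 3 semaphorins, 0 were called with all libraries by any of the 3 tools, and edgeR gave 0 at an unadjusted p under 0.05. Pcsk6 was higher in muscle without muscle library 4 (0.91 ± 0.14, adjusted p = 0.000565).

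**Figure D4:**
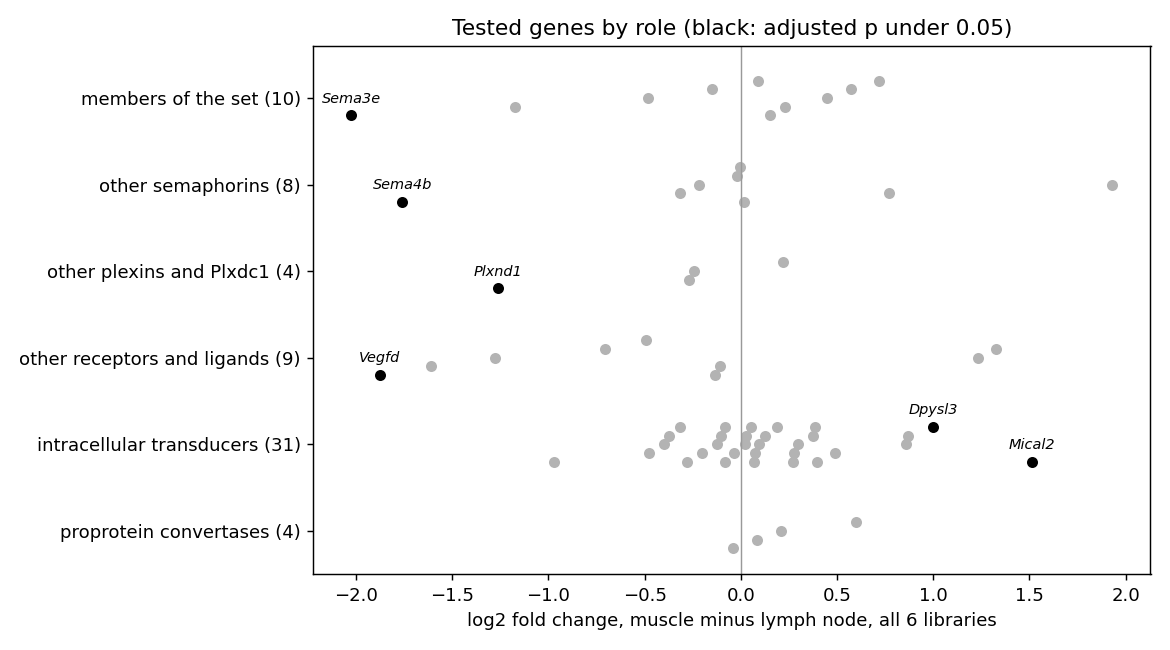
Log2 fold change, muscle minus lymph node (horizontal axis), of each tested gene with all 6 libraries, 1 point a gene, in rows by role with the number tested in brackets. The named black points are the 6 genes with an adjusted p under 0.05, of which Dpysl3 and Mical2 are higher and Sema3e, Sema4b, Plxnd1 and Vegfd lower in muscle.

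Transcripts of immediate early genes, which rise within minutes of cell stress, moved with tissue in the same libraries. Their sum over 16 genes was between 3300 and 4053 CPM in muscle and between 22061 and 23849 CPM in lymph node. Against 2.86% of all tested genes, 15 of the 16 were lower in muscle. Their part in the differences of Sema3e, Sema3b and Plxnd1 was not tested. Mural cell markers (7 genes) summed to between 78.6 and 113 CPM in muscle and between 184 and 203 CPM in lymph node. Of these, Abcc9 was lower in muscle (17.4, 23.8 and 37.6 CPM in muscle libraries 2, 3 and 4, against between 122 and 169 CPM in lymph node, with an adjusted p of 0.00143). The other 6 summed to between 61.2 and 75.3 CPM in muscle and between 33.2 and 66.2 CPM in lymph node. Des was higher in muscle when muscle library 4 was left out (1.37, adjusted p = 0.00148), and the defining Rgs5 was at most 10.8 CPM in any library. Summed muscle fibre markers (6 genes) were 61.7, 69.9 and 13.4 CPM in muscle libraries 2, 3 and 4, against between 10.3 and 11.4 CPM in lymph node. Without muscle library 4, Acta1 (7.23, adjusted p = 1.26e-06, on 1 count in lymph node) and Tnnt3 (1.99, adjusted p = 0.00563) were higher in muscle. Acta1 passed the filter only through muscle libraries 2 and 3, so the direction of its call was set in advance. Ckm, Myh4, Mylpf and Myh1 were below the filter. Schwann and glial markers (8 genes) summed to 39.0, 57.6 and 134 CPM in muscle libraries 2, 3 and 4, against between 107 and 128 CPM in lymph node. Mbp (adjusted p = 0.654) and Cnp (adjusted p = 0.332) were not called with all libraries, and both were lower in muscle without muscle library 4 (-3.07, adjusted p = 0.000391 for Mbp, and -1.12, adjusted p = 0.00382 for Cnp). The defining Sox10 had 0 counts in 5 libraries and 1 count in muscle library 3. The part of these marker lists in the results on the 10 genes was not tested. Little of the sequence of the 10 genes is shared: between 0.041% and 3.16% of their 25-base words also occur in transcripts of other genes, and no opposite-strand exon overlaps theirs.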

How the data were processed

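The deposited table holds counts of reads or fragments per gene symbol, which the authors made with STAR 2.5.4 and featureCounts on mm10, per the submitters' processing notes. The annotation, strand setting and handling of multi-mapped reads were not given in the sources used here. Per the labels' protocols, oligo(dT)-primed cDNA was amplified by PCR, tagged with a transposase and read as pairs of 25 bases. No molecular identifiers are described, so floors on counts of 0 cover counting error only. Lymph node columns match sample titles; muscle columns (2, 3, 4) do not match muscle titles one to one and were used as muscle replicates.

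Counts were tested with edgeR 4.0.16 (R 4.3.3): filterByExpr, then TMM, then the quasi-likelihood F test on tissue, adjusted over all tested genes. SE is the absolute log2 fold change over the root of F. Intervals are 1.96 SE on each side, which is narrower than a 95% interval from the F test would be. Floors are 3 counts. Alternatives used other scalings and filters, DESeq2 1.42.0, limma-voom (limma 3.58.1), a replicate block, thinning and leaving out each library. In simulated counts, with changes planted in genes above a minimum level, the test recovered 25% of 100 2-fold changes and 89% of 100 4-fold changes. It made 7 false calls among 10401 tested genes. Sema3a and Nrp2 lay below that minimum level. Each gene was simulated with the same dispersion in all libraries, so the way muscle library 4 stood apart was not reproduced. Coordinates, exon lengths and shared words come from GENCODE M21 (GRCm38), where 49365 of 52997 symbols were found.

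The members and lists were chosen with earlier results of these data known. Named were all members, called genes of the lists, and semaphorins or plexins with at least 50 CPM in the higher tissue. Genes of similar pattern were to be named for called members above 50 CPM, and 0 members qualified.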

Additional observations from a re-analysis of the deposited data

How the results depend on the processing

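Against 468 genes called over the table, no filter gave 945, limma-voom with library weights 1366, the replicate block 1530 and thinning to the smallest library 136, and leaving out 1 library gave between 142 and 1391. Of the 10 genes, edgeR called 0 higher in muscle and 1 lower with all libraries (2 higher and 1 lower at an unadjusted p under 0.05; DESeq2 and limma-voom 0 and 1). The higher count was 2 with library weights (Sema5a and Plxdc2), 4 under the replicate block, and between 0 and 3 without 1 library. The lower count was 0 with upper-quartile or total-count scaling and with thinning, 2 with no filter and under the replicate block, and between 0 and 2 without 1 library. The log2 fold change of Sema3e was -2.01 with upper-quartile scaling (adjusted p = 0.051) and -1.93 with total-count scaling (adjusted p = 0.0646). It was between -2.66 and -1.76 without 1 library. DESeq2 gave -2.04 (adjusted p = 0.00715) and limma-voom -2.06 (adjusted p = 0.0491). Thinned, Sema3e fell under the filter and was not tested. Its sign was the same in all 15 alternatives that gave a value. Of the other 9 genes, Sema3a, Sema3b, Sema3c, Sema5a, Nrp1, Nrp2 and Plxdc2 kept their sign in every alternative that gave a value, Sema3d in 11 of 16 and Plxna2 in 13 of 16. The labels give no pairing of libraries by column number, so the block is a setting, not the design. Deviations from the tissue means had r = -0.03 and 0.02 for columns 2 and 3 of the tissues. These values cannot tell whether libraries were paired, since the muscle mean included muscle library 4, which stood apart. The cause of these changes was not tested. Muscle library 4, with 415460 counts, limits what can be seen of genes under 8.06 CPM there.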

Other observations

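Muscle library 4 also held semaphorin and plexin transcripts that were scarce elsewhere. Sema4d, which encodes a class 4 semaphorin known from lymphocytes, measured 78.0 CPM there, from 29 counts, against 2.64 and 2.31 CPM in muscle libraries 2 and 3 and between 2.86 and 6.87 CPM in lymph node libraries. Sema4a, a class 4 semaphorin of immune cells, had 21.5 CPM in muscle library 4, against 3.69 and 5.38 CPM in the other muscle libraries and at most 5.92 CPM in lymph node libraries. Plxnb1, the receptor of Sema4d, had 26.9 CPM there, from 10 counts, and at most 3.84 CPM in any of the other 5 libraries. Sema5b had 24.2 CPM there and at most 6.85 CPM elsewhere. The summed markers of T cells and B cells were high in the same library, as was the sum of the myeloid list, which was mostly Ptprc. The part of such cells in these levels was not tested.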
